A study of Mus musculus with 12 samples.

Results

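The mRNAs described here are those of 128 genes of the cell cycle and mitosis, taken by gene symbol from the 55376 genes counted. They comprise every gene whose symbol follows the naming pattern of the cyclins A to L, the cyclin-dependent kinases (CDKs), the CDK inhibitors Cdkn1 to Cdkn3, the minichromosome maintenance genes Mcm2 to Mcm7, the kinesins (Kif), the Aurora and Polo-like kinases, the Bub checkpoint genes, the centromere proteins (Cenp) or the division cycle genes Cdc6, Cdc7, Cdc20, Cdc25 and Cdc45. A pattern in a symbol also brings in genes with other work, such as the transport kinesins and the transcription-linked kinases Cdk8 and Cdk9, and these were kept in groups of their own. Of the 128 genes, 106 reached 1 CPM (counts of a gene for each 1000000 counts of its library) in at least 3 of the 12 libraries. These were tested among 12224 genes in all. By role they fell into S phase genes (13 of 13 tested), mitotic kinases, cyclins and checkpoint genes (15 of 15), mitotic kinesins (11 of 11), centromere proteins (20 of 20), G1 cyclins and kinases (5 of 5), CDK inhibitors (4 of 7), other kinesins (14 of 27) and other cyclins, kinases and names (24 of 30).

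The cells were 4T1, a line from a mouse mammary tumour, carrying a stable vector with a CMV promoter. The vector was empty in mock cells and held full-length Mettl7a1 cDNA in METTL7A1 cells, and both were kept under G418 selection. METTL7A1 is a putative methyltransferase of the cytoplasm, and whether each transfectant was a single clone or a pool is not stated in the sources used here. In all 4 groups ribosomes were halted with cycloheximide at 0.1 mg/ml for 5 min, and cytoplasmic lysates were separated on sucrose gradients. Fractions 3 to 7 were taken as sub-polysomal. Fractions 8 to 11 were taken as polysomal, and this pool holds mRNAs loaded with several ribosomes. RNA-Seq was available for 3 replicates of each genotype and pool, with the letters A to C for mock replicates and D to F for METTL7A1 replicates. Nothing in the labels says whether these came from separate cultures, so p-values measure only the spread between these samples.

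A dividing cell passes from G1, in which D-type cyclins activate Cdk4 and Cdk6, to S phase, in which the DNA is copied. There the Mcm2 to Mcm7 helicase is loaded by Cdc6, fired by Cdc7 and by cyclin E with Cdk2, and joined by Cdc45. Entry into mitosis depends on Cdk1 with cyclin B, which Cdc25 phosphatases switch on. Plk1 and the Aurora kinases build the spindle, Bub proteins hold the spindle checkpoint and Cdc20 activates the anaphase-promoting complex that ends mitosis. Transcription of S phase genes is classically driven by E2F factors, and that of late mitotic genes by complexes that bind a cell cycle genes homology region (CHR), often beside CCAAT boxes. CDK inhibitors such as Cdkn1a (p21) restrain these kinases.

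Library totals were 1817520 to 5738989 counts in mock sub-polysomal, 5966935 to 6966156 in mock polysomal, 3670942 to 5171156 in METTL7A1 sub-polysomal and 5358491 to 6890725 in METTL7A1 polysomal RNA, with mock sub-polysomal A the shallowest. Mettl7a1 itself lay between 1.26 and 3.27 CPM in the 6 mock libraries and between 236 and 394 CPM in the 6 METTL7A1 libraries, so every library matched the genotype of its label. The epithelial markers Epcam, Krt8, Krt18, Cdh1 and Krt7 were at 170 CPM or more in all 12 libraries, while of 11 markers of leukocytes, endothelium, fibroblasts and adipocytes all but Pdgfra (up to 5.86 CPM) stayed at or below 1.32 CPM.

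Per kilobase of gene model, a scale that allows genes to be compared, Cdk4 had the highest mean level (432 CPM per kb over the 12 libraries), followed by Ccnd1, which encodes cyclin D1 (248 CPM per kb), and Cdkn2aipnl (155 CPM per kb). Cdk1 (79.7 CPM per kb), Mcm5 (71.6 CPM per kb) and the centromeric histone Cenpa (89.6 CPM per kb) were also among the 10 highest. Of the 22 genes not tested, 11 had no count in any library: Ccna1, Ccnb3, Cdk15, Cdkn1c, Cdkn2a, Cdkn2b, Kif12, Kif19a, Kif1a, Kif26a and Kif6. For the INK4 inhibitors Cdkn2a and Cdkn2b, a count of 0 allows up to 1.69 CPM in the shallowest library (3 counts), and the limit is 0.372 CPM in the deepest. The other 11 were Ccnb1-ps, Ccnb2-ps, Ccnd3-ps, Kif17, Kif21b, Kif26b, Kif27, Kif28, Kif2b, Kif5a and Kif9, with at most 7 counts in any library.

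Short promoter stretches are shown of 8 mitotic genes whose mRNAs differed between the genotypes and whose promoters held the CHR letters. For contrast, stretches are shown of 6 S phase genes that held an E2F motif. They come from the RefSeq windows of GRCm38.p6 (250 bases before to 50 after the start site) in the direction of the gene, and the capitals mark the CHR (the letters TTTGAA or else the letters TTCGAA) in the mitotic genes.
Cdk1, chr10:69352910-69352939, minus strand: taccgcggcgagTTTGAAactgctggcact
Plk1, chr7:122159453-122159482, plus strand: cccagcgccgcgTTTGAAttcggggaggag
Cdc20, chr4:118437344-118437373, minus strand: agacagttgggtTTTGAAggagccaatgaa
Aurka, chr2:172370521-172370550, minus strand: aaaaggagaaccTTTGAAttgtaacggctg
Ccnb2, chr9:70421533-70421562, minus strand: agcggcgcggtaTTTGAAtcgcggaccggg
Cdc25b, chr2:131186943-131186972, plus strand: ccgctgttatttTTCGAAtatataaggagg
Bub1, chr2:127831828-127831857, minus strand: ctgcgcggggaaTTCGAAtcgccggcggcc
Kif18b, chr11:102925104-102925133, minus strand: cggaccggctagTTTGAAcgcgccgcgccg

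In the S phase genes the capitals mark an E2F motif (the letters TTTCGCG, the letters TTTGGCG or the letters TTTCCCGC, or their reverse complements).
Mcm3, chr1:20820275-20820304, minus strand: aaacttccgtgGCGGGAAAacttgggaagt
Mcm5, chr8:75109350-75109378, plus strand: aagaactttcgCGCCAAAacgtccagcct
Mcm6, chr1:128359735-128359763, minus strand: gattggacgggTTTGGCGcgaagtagctc
Mcm7, chr5:138171850-138171878, minus strand: gggtgacgacgTTTCGCGccaatttcggt
Cdc6, chr11:98908002-98908031, plus strand: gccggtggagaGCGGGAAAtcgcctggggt
Cdk2, chr10:128705173-128705202, minus strand: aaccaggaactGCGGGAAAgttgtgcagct

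A window was at hand for 92 of the 106 tested genes, and both strands were searched. A gene counted where any of its windows held the letters, while the shares of all windows are by window. The CHR letters stood in the windows of 10 of 12 mitotic kinase, cyclin and checkpoint genes (83.3%) and of 9 of 10 mitotic kinesin genes (90%), against 4 of 11 S phase genes (36.4%), 6 of 20 centromere genes (30%), 1 of 12 other kinesins (8.33%) and 19.2% of all 32851 windows. The E2F letters stood in 7 of 11 S phase genes (63.6%) and in 1 of 12 mitotic kinase, cyclin and checkpoint genes (8.33%, Cdk1), against 3.36% of all windows, and CCAAT stood in 11 of the same 12 mitotic genes (91.7%) against 37.4%. Counted by window, the E2F letters stood in 7 of 13 S phase windows (53.8%). The CHR letters stood in 11 of 13 windows (84.6%) of the mitotic kinase, cyclin and checkpoint genes. Such matches describe the letters and do not show that a factor binds there. The genes shown were chosen by name among those that held the motif. Ccnb1 also differed between the genotypes, but its window had no CHR letters. The windows of Mcm2 and Cdc45 had no E2F letters, and those of Mcm2, Mcm7, Cdc45 and Cdc7 held the CHR letters. The CHR lay 9 bases before the start site in Cdk1 and 12 bases before it in Cdc20, and after the start site in Plk1, Aurka, Ccnb2, Cdc25b, Bub1 and Kif18b.

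To ask how METTL7A1 expression altered the levels of these mRNAs, METTL7A1 libraries were compared with mock libraries within each pool, with edgeR's quasi-likelihood test over all 12224 genes and a threshold of 0.01 on the Benjamini-Hochberg adjusted p. Fold changes are given as log2 values, and levels as CPM scaled with TMM factors. In polysomal RNA, 14 of the 106 mRNAs were higher in METTL7A1 cells (13.2%, against 5.03% of all genes tested) and 6 were lower (5.66%, against 3.78%). In sub-polysomal RNA, 16 were higher (15.1%, against 10.5%) and 7 were lower (6.6%, against 7.69%), so that the share of lower mRNAs lay near the background in both pools. The median log2 change of the 106 mRNAs was 0.09 between polysomal and 0.07 between sub-polysomal libraries, against -0.01 and -0.00 for all genes tested. With a further limit of 1.5 on the log2 change, only the kinesin Kif5c remained in either pool, against 2.13% of all genes in polysomal and 2.76% in sub-polysomal RNA. Scaled to the Actb count, where the median of all genes became 0.08 (polysomal) and 0.26 (sub-polysomal), the split was 15 higher and 2 lower in the former and 26 higher and 1 lower in the latter. The 20 polysomal calls became 10 without mock polysomal B or METTL7A1 polysomal E and 13 without METTL7A1 polysomal F. In a bulk sample, fewer cells in a phase and less mRNA per cell cannot be told apart.

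**Figure D1:**
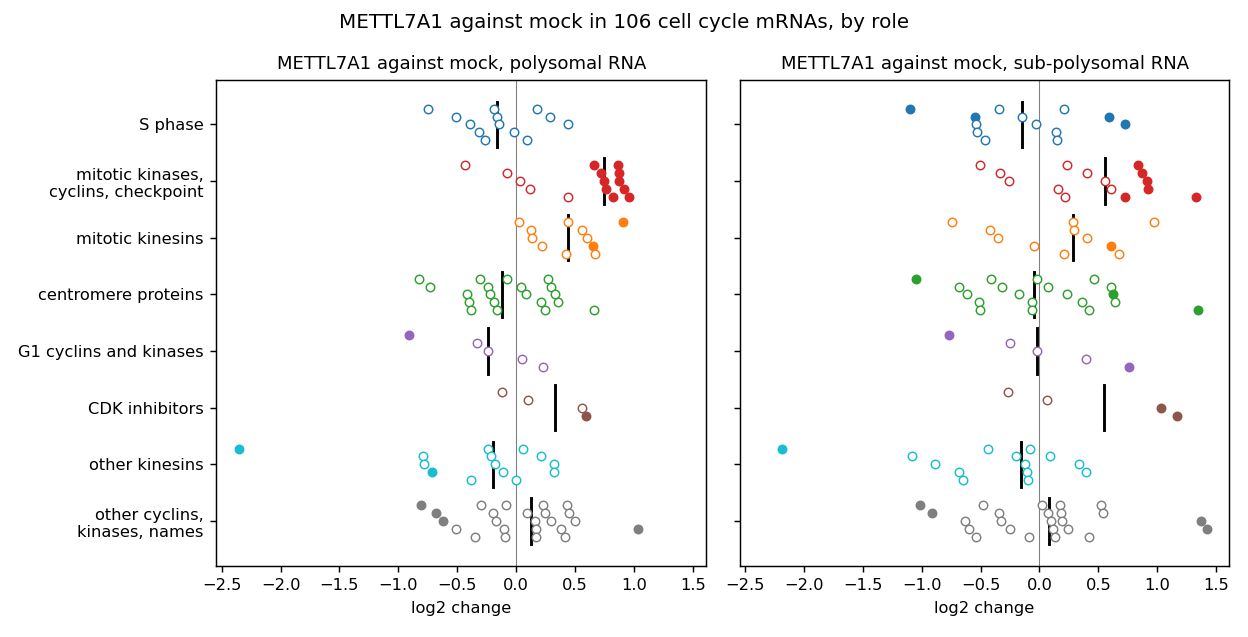
Log2 change of the 106 tested mRNAs between METTL7A1 and mock cells (x axis) by role (y axis), in polysomal RNA (left) and sub-polysomal RNA (right). Each point is 1 gene, filled where the adjusted p was below 0.01, and the black bar is the median of the role, which was 0.75 and 0.56 in the mitotic kinases, cyclins and checkpoint genes.

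Of the 20 polysomal calls 10 were in the mitotic kinases, cyclins and checkpoint genes. In polysomal RNA 10 of the 15 mRNAs of this role were higher in METTL7A1 cells (66.7%, against 5.03% of all genes tested) and 0 lower. In sub-polysomal RNA 6 were higher (40%, against 10.5%) and 0 were lower. At an unadjusted p below 0.05 were 12 and 10 of the 15, against 3819 and 5164 of all 12224 genes. The summed level of the 15 mRNAs was 931 to 1109 CPM in the 3 mock polysomal libraries and 1352 to 1509 CPM in the 3 METTL7A1 polysomal libraries, and 760.1 to 809 CPM against 985 to 1003 CPM in sub-polysomal RNA. Cdk1 was the largest part of each sum, so the sums do not show that the role rose as a whole. It was at 285 to 369 CPM in mock and 525 to 598 CPM in METTL7A1 polysomal RNA. In sub-polysomal RNA Cdk1 was at 192 to 216 CPM and 307 to 387 CPM. The count of 10 in polysomal RNA fell to 4 without mock polysomal B, to 6 without mock polysomal C, to 5 without METTL7A1 polysomal E and to 6 without METTL7A1 polysomal F.

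Cdk1, the kinase that drives entry into mitosis (chr10:69335146-69352938, minus strand, GRCm38), was at 369, 285 and 325 CPM in mock polysomal RNA and 525, 598 and 538 CPM in METTL7A1 polysomal RNA. In the sub-polysomal pools Cdk1 was at 207, 216 and 192 CPM in mock and 387, 323 and 307 CPM in METTL7A1 cells. All METTL7A1 libraries lay above all mock libraries of the same pool, and Cdk1 rose by a log2 of 0.76 ± 0.15 (SE, adjusted p = 0.00126) in the polysomal and 0.73 ± 0.15 (SE, adjusted p = 0.00127) in the sub-polysomal pool. The call of Cdk1 was lost when mock polysomal B and METTL7A1 polysomal E were left out 1 at a time (adjusted p from 0.0111 to 0.0121). Ccnb1, which encodes cyclin B1, the partner of Cdk1, was at 33.8, 24.9 and 24.5 CPM in mock polysomal RNA and 51.0, 54.1 and 47.1 CPM in METTL7A1 polysomal RNA, without overlap. The mRNA of Ccnb1 rose by a log2 of 0.87 ± 0.20 (SE, adjusted p = 0.0051). In sub-polysomal RNA Ccnb1 was at 16.4, 14.8 and 27.0 CPM in mock and 25.2, 42.6 and 42.0 CPM in METTL7A1 cells, a log2 rise of 0.87 ± 0.23 (SE, adjusted p = 0.00805) although 1 mock library exceeded 1 METTL7A1 library. The polysomal call of Ccnb1 was lost when mock polysomal B and C and METTL7A1 polysomal D, E and F were left out 1 at a time (adjusted p from 0.0117 to 0.03). Its sub-polysomal call was lost when mock sub-polysomal A and B, METTL7A1 sub-polysomal E and F and METTL7A1 polysomal D, E and F were left out 1 at a time (adjusted p from 0.0104 to 0.0449). Ccnb2, the gene of cyclin B2, was at 33.3, 29.8 and 38.8 CPM in mock polysomal RNA and 59.7, 51.0 and 50.1 CPM in METTL7A1 polysomal RNA. Ccnb2 mRNA rose by a log2 of 0.66 ± 0.14 (SE, adjusted p = 0.00284). Its sub-polysomal ranges overlapped (33.8, 32.7 and 31.9 CPM in mock and 38.8, 39.2 and 32.0 CPM in METTL7A1 cells, log2 change 0.16, adjusted p = 0.458). The call of Ccnb2 was lost when mock polysomal B and METTL7A1 polysomal D were left out 1 at a time (adjusted p from 0.0224 to 0.0225).

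The phosphatase genes Cdc25b and Cdc25c, whose products activate Cdk1, were both higher in polysomal RNA of METTL7A1 cells. Cdc25b was at 23.7, 25.7 and 29.9 CPM in mock polysomal RNA and 51.5, 50.3 and 52.7 CPM in METTL7A1 polysomal RNA. In sub-polysomal RNA Cdc25b was at 17.5, 24.8 and 20.1 CPM in mock and 52.0, 48.3 and 58.3 CPM in METTL7A1 cells. The genotypes did not overlap in either pool. The rise of 0.96 ± 0.14 (SE, adjusted p = 0.00011) in polysomal and 1.33 ± 0.16 (SE, adjusted p = 1.12e-05) in sub-polysomal RNA was the largest of the 15 mRNAs. It was kept without any 1 of the 12 libraries. Cdc25c was at 5.05, 6.73 and 6.20 CPM in mock polysomal RNA and 9.30, 13.2 and 11.4 CPM in METTL7A1 polysomal RNA. Cdc25c mRNA rose by a log2 of 0.92 ± 0.20 (SE, adjusted p = 0.0037). Its sub-polysomal log2 change was 0.61 (adjusted p = 0.117) on levels of 3.38, 3.46 and 4.73 CPM in mock and 7.29, 6.45 and 5.01 CPM in METTL7A1 cells. The call of Cdc25c was lost when mock polysomal A and C and METTL7A1 polysomal E and F were left out 1 at a time (adjusted p from 0.0101 to 0.0365).

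Aurka, the centrosomal Aurora kinase of the spindle (chr2:172356190-172370535, minus strand), was at 40.4, 35.8 and 41.8 CPM in mock polysomal RNA and 71.0, 80.2 and 65.4 CPM in METTL7A1 polysomal RNA. In sub-polysomal RNA Aurka was at 27.1, 34.0 and 32.1 CPM in mock and 58.3, 59.7 and 59.7 CPM in METTL7A1 cells. The genotypes were apart in both pools, and Aurka rose by a log2 of 0.88 ± 0.13 (SE, adjusted p = 0.000135) and 0.92 ± 0.15 (SE, adjusted p = 0.000155), calls that were kept without any 1 library. Aurkb, the Aurora kinase of the chromosomal passenger complex, did not pass in either pool (log2 change 0.12, adjusted p = 0.637, in polysomal and 0.23, adjusted p = 0.32, in sub-polysomal RNA). Aurkb was at 62.5, 53.1 and 54.0 CPM in mock and 56.9, 69.6 and 57.7 CPM in METTL7A1 polysomal RNA. Plk1, the Polo-like kinase of mitosis (chr7:122159439-122169873, plus strand), was at 25.1, 18.4 and 15.5 CPM in mock polysomal RNA and 28.2, 42.5 and 33.6 CPM in METTL7A1 polysomal RNA. In sub-polysomal RNA Plk1 was at 18.0, 29.2 and 20.1 CPM in mock and 42.4, 41.1 and 45.4 CPM in METTL7A1 cells. The lowest METTL7A1 library was above the highest mock library in each pool, and Plk1 rose by a log2 of 0.83 ± 0.19 (SE, adjusted p = 0.00533) and 0.92 ± 0.21 (SE, adjusted p = 0.00273). The polysomal call of Plk1 was lost when mock polysomal B and C and METTL7A1 polysomal E and F were left out 1 at a time (adjusted p from 0.0153 to 0.0493). Its sub-polysomal call was lost when mock sub-polysomal A and C and METTL7A1 sub-polysomal F were left out 1 at a time (adjusted p from 0.0102 to 0.0209). Plk4, the kinase of centriole duplication, did not pass, with log2 changes of -0.44 (adjusted p = 0.0601) and -0.51 (adjusted p = 0.0303).

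Cdc20, the activator of the anaphase-promoting complex (chr4:118432901-118437352, minus strand), was at 40.1, 29.4 and 38.0 CPM in mock polysomal RNA and 66.1, 73.1 and 56.0 CPM in METTL7A1 polysomal RNA. In sub-polysomal RNA Cdc20 was at 24.2, 27.0 and 27.6 CPM in mock and 46.7, 52.5 and 43.2 CPM in METTL7A1 cells. The 3 METTL7A1 libraries were above the 3 mock libraries in each pool, and Cdc20 rose by a log2 of 0.86 ± 0.15 (SE, adjusted p = 0.000488) and 0.84 ± 0.17 (SE, adjusted p = 0.000996), both kept without any 1 library. The spindle checkpoint kinase gene Bub1 was at 23.7, 23.2 and 17.7 CPM in mock polysomal RNA and 38.2, 35.8 and 34.3 CPM in METTL7A1 polysomal RNA, without overlap. The mRNA of Bub1 rose by a log2 of 0.75 ± 0.18 (SE, adjusted p = 0.00635). Sub-polysomal levels of Bub1 overlapped (16.9, 12.9 and 20.9 CPM in mock and 16.2, 23.8 and 27.7 CPM in METTL7A1 cells, log2 change 0.41, adjusted p = 0.153). The call of Bub1 was lost when mock sub-polysomal A, mock polysomal B and C, METTL7A1 sub-polysomal E and METTL7A1 polysomal D, E and F were left out 1 at a time (adjusted p from 0.011 to 0.0329). Bub1b, which encodes the checkpoint protein BUBR1, was at 29.7, 21.3 and 26.5 CPM in mock polysomal RNA and 41.0, 43.2 and 43.9 CPM in METTL7A1 polysomal RNA. Bub1b mRNA rose by a log2 of 0.72 ± 0.14 (SE, adjusted p = 0.0016), with a sub-polysomal log2 change of 0.56 (adjusted p = 0.0284). The call of Bub1b was lost without mock polysomal B (adjusted p = 0.0144). Ccna2, the gene of cyclin A2, also passed in neither pool (log2 change -0.08, adjusted p = 0.758, in polysomal and -0.33, adjusted p = 0.0929, in sub-polysomal RNA). Nor did the checkpoint gene Bub3 (0.03, adjusted p = 0.896, and -0.26, adjusted p = 0.184) and the phosphatase gene Cdkn3 (0.44, adjusted p = 0.16, and 0.22, adjusted p = 0.509). Ccna2 shared 10.4% of its exon bases with Exosc9 on the other strand, and the strand setting of the counting is not given in the sources used here.

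**Figure D2:**
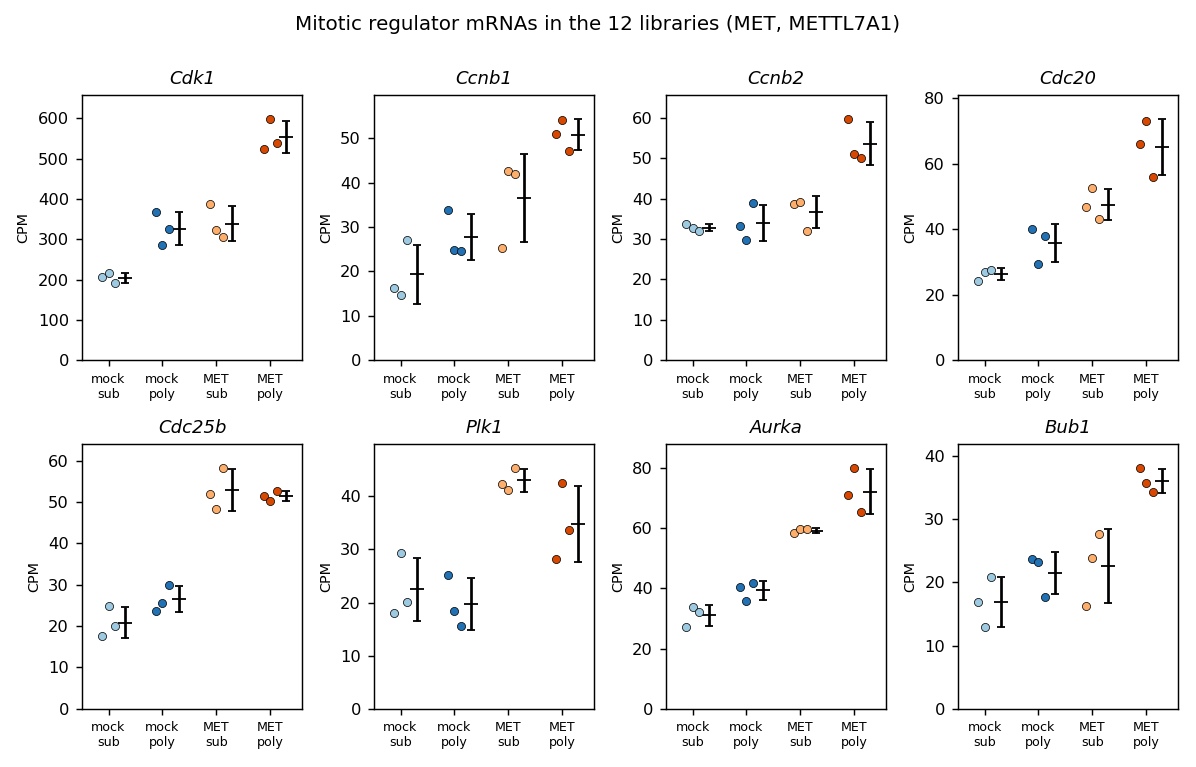
CPM of 8 mitotic regulator mRNAs (y axis, from 0) in the 12 libraries by group (x axis; MET, METTL7A1; sub, sub-polysomal; poly, polysomal). Points are libraries, and the bars give the mean ± SD of 3 replicates, where the METTL7A1 polysomal points of all 8 genes lie above the mock polysomal points, while the sub-polysomal points of Ccnb1, Ccnb2 and Bub1 overlap between genotypes.

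Among the 11 mitotic kinesins, 2 were higher in polysomal RNA of METTL7A1 cells (18.2%, against 5.03% of all genes tested) and 0 lower. In sub-polysomal RNA 1 was higher (9.09%, against 10.5%) and 0 were lower. At an unadjusted p below 0.05 were 6 and 5 of the 11, against 3819 and 5164 of all 12224 genes. All 11 had a polysomal log2 change above 0, with a median of 0.44, against -0.01 for all genes tested. Kif2c, the microtubule depolymerase MCAK, was at 14.3, 12.9 and 14.4 CPM in mock polysomal RNA and 26.1, 28.1 and 23.7 CPM in METTL7A1 polysomal RNA, without overlap. The mRNA of Kif2c rose by a log2 of 0.91 ± 0.17 (SE, adjusted p = 0.000832), a call kept without any 1 library. In sub-polysomal RNA its log2 change was 0.67 (adjusted p = 0.018). Kif18b, a kinesin of astral microtubule ends, was at 15.7, 16.8 and 17.5 CPM in mock polysomal RNA and 23.9, 27.8 and 26.6 CPM in METTL7A1 polysomal RNA. Kif18b mRNA rose by a log2 of 0.65 ± 0.14 (SE, adjusted p = 0.00372) there and by 0.61 ± 0.16 (SE, adjusted p = 0.00666) in sub-polysomal RNA. The polysomal call of Kif18b was lost when mock polysomal A and B and METTL7A1 polysomal E and F were left out 1 at a time (adjusted p from 0.0121 to 0.0261). Its sub-polysomal call was lost when mock sub-polysomal A and C, METTL7A1 sub-polysomal D and F and METTL7A1 polysomal F were left out 1 at a time (adjusted p from 0.0107 to 0.0566). The bipolar spindle motor Kif11, the cytokinesis kinesin Kif20a and the central spindle kinesin Kif23 did not pass in either pool (polysomal log2 changes 0.22, adjusted p = 0.403, 0.56, adjusted p = 0.0177, and 0.13, adjusted p = 0.614). Kif20a shared 31.8% of its exon bases with Cdc23 on the other strand.

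The 13 S phase mRNAs behaved otherwise. In polysomal RNA 0 of them passed by edgeR or limma-voom in either direction and 1, lower, by DESeq2, and their median log2 change was -0.16. At an unadjusted p below 0.05 by edgeR were 6 of the 13, against 3819 of all 12224 genes. In sub-polysomal RNA 2 were higher and 2 lower (15.4% each, against 10.5% and 7.69% of all genes). The median was -0.15, which became 0.11 with Actb scaling, where all genes had a median of 0.26. The helicase genes Mcm2 to Mcm6 did not pass in either pool, with polysomal log2 changes of -0.19, -0.02, -0.15, -0.32 and -0.26 and adjusted p-values from 0.126 to 0.939. Mcm7, another subunit of the helicase, was at 199.7, 159 and 167 CPM in mock and 121, 138 and 111 CPM in METTL7A1 polysomal RNA (log2 change -0.51, adjusted p = 0.0118). It fell by 0.54 on the log2 scale in sub-polysomal RNA (adjusted p = 0.00583), from 144, 155 and 134 CPM to 94.4, 101 and 100.5 CPM. The METTL7A1 libraries of Mcm7 lay below the mock libraries in both pools. The call of Mcm7 was lost when mock sub-polysomal A, B and C and METTL7A1 sub-polysomal D, E and F were left out 1 at a time (adjusted p from 0.0106 to 0.0233). The loading factor gene Cdc6 (-0.39, adjusted p = 0.0419, in polysomal and -0.53, adjusted p = 0.0122, in sub-polysomal RNA), Cdc45 (-0.16, adjusted p = 0.366, and -0.03, adjusted p = 0.869) and the phosphatase gene Cdc25a (0.29, adjusted p = 0.131, and 0.21, adjusted p = 0.25) did not pass.

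The E-type cyclins, which start S phase with Cdk2, moved in opposite directions in sub-polysomal RNA. Ccne1 was at 41.7, 36.1 and 36.1 CPM in mock and 72.5, 61.0 and 54.5 CPM in METTL7A1 sub-polysomal RNA, without overlap. Its mRNA rose by a log2 of 0.73 ± 0.15 (SE, adjusted p = 0.00119), a call kept without any 1 library. Ccne2 was at 29.9, 25.1 and 34.5 CPM in mock and 12.6, 12.4 and 17.0 CPM in METTL7A1 sub-polysomal RNA, also without overlap. The log2 change of Ccne2 was -1.10 ± 0.24 (SE, adjusted p = 0.00234). The call of Ccne2 was lost when mock sub-polysomal C and METTL7A1 sub-polysomal D and E were left out 1 at a time (adjusted p from 0.0121 to 0.0193). In polysomal RNA the changes kept these signs but did not pass (0.44, adjusted p = 0.0286 for Ccne1 and -0.75, adjusted p = 0.016 for Ccne2). Cdk2 was at 48.5, 41.5 and 37.6 CPM in mock and 69.5, 62.7 and 57.8 CPM in METTL7A1 sub-polysomal RNA. Its mRNA rose by a log2 of 0.59 ± 0.15 (SE, adjusted p = 0.00513), while its polysomal log2 change was 0.18 (adjusted p = 0.395). The call of Cdk2 was lost when mock sub-polysomal B and C and METTL7A1 sub-polysomal D and E were left out 1 at a time (adjusted p from 0.0156 to 0.0382). Mcm7 and Ccne2 shared 10.8% and 10.5% of their exon bases with genes on the other strand (Ap4m1 and Ints8).

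Among the 20 centromere proteins, 0 passed in polysomal RNA by edgeR, limma-voom or DESeq2. At an unadjusted p below 0.05 by edgeR were 6 of the 20, against 3819 of all 12224 genes. In sub-polysomal RNA 2 were higher (10%, against 10.5% of all genes) and 1 lower (5%, against 7.69%), both near the background. Cenpa, the histone H3 variant that marks centromeres (chr5:30666777-30674830, plus strand), was at 109, 156 and 128 CPM in mock and 316, 348 and 339.8 CPM in METTL7A1 sub-polysomal RNA, and the genotypes were far apart. The log2 rise of Cenpa was 1.35 ± 0.21 (SE, adjusted p = 0.000116) and was kept without any 1 library. In polysomal RNA Cenpa was at 28.6, 54.8 and 58.8 CPM in mock and 61.4, 80.7 and 83.1 CPM in METTL7A1 cells, without overlap (log2 change 0.66, adjusted p = 0.0338). Cenpb, which binds centromeric satellite DNA, rose by a log2 of 0.63 ± 0.17 (SE, adjusted p = 0.00945) in sub-polysomal RNA, from 385, 457 and 326 CPM in mock to 671, 557 and 574 CPM in METTL7A1 cells. The call of Cenpb was lost when mock sub-polysomal A and C, mock polysomal B, METTL7A1 sub-polysomal D, E and F and METTL7A1 polysomal D, E and F were left out 1 at a time (adjusted p from 0.0112 to 0.0568). Cenpo, a kinetochore protein gene, was at 22.6, 13.8 and 15.6 CPM in mock and 8.61, 10.4 and 5.25 CPM in METTL7A1 sub-polysomal RNA. Its log2 change was -1.05 ± 0.25 (SE, adjusted p = 0.00389), and 24.3% of its exon bases were shared with Adcy3 on the other strand. The call of Cenpo was lost when mock sub-polysomal A and METTL7A1 sub-polysomal D and F were left out 1 at a time (adjusted p from 0.0105 to 0.025). The large kinetochore genes Cenpe (log2 change 0.21, adjusted p = 0.553, in polysomal and -0.31, adjusted p = 0.517, in sub-polysomal RNA) and Cenpf (-0.08, adjusted p = 0.836, and -0.17, adjusted p = 0.639) did not pass. With Actb scaling, 6 centromere mRNAs were higher and 0 lower in sub-polysomal RNA, where 2093 of all 12224 genes were higher and 273 lower.

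Of the G1 cyclins and kinases, Ccnd2 (cyclin D2; chr6:127125162-127151060, minus strand) was lower in METTL7A1 cells in both pools. It was at 105, 84.2 and 73.9 CPM in mock polysomal RNA and 47.5, 49.2 and 43.2 CPM in METTL7A1 polysomal RNA. In sub-polysomal RNA Ccnd2 was at 41.1, 31.1 and 39.8 CPM in mock and 19.2, 20.1 and 26.0 CPM in METTL7A1 cells. The METTL7A1 libraries lay below the mock libraries in each pool, with log2 changes of -0.91 ± 0.16 (SE, adjusted p = 0.000474) and -0.76 ± 0.18 (SE, adjusted p = 0.00386). The polysomal call was kept without any 1 library. The sub-polysomal call of Ccnd2 was lost when mock sub-polysomal A and C and METTL7A1 sub-polysomal D and E were left out 1 at a time (adjusted p from 0.0167 to 0.0237). Ccnd3, the gene of cyclin D3, was higher in sub-polysomal RNA, at 128, 191 and 159.7 CPM in mock and 268, 262 and 288 CPM in METTL7A1 cells (0.76 ± 0.15 SE, adjusted p = 0.00104). It did not pass in polysomal RNA (0.23, adjusted p = 0.322). Ccnd1 (polysomal log2 change -0.24, adjusted p = 0.321), Cdk4 (0.05, adjusted p = 0.86) and Cdk6 (-0.33, adjusted p = 0.118) passed in neither pool. Cdk4, Ccnd1 and Ccnd3 shared 31.2%, 21.9% and 14.8% of their exon bases with expressed genes on the other strand.

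The CDK inhibitor Cdkn1a (p21) was higher in METTL7A1 cells alongside the mitotic genes. It was at 64.9, 63.3 and 76.5 CPM in mock polysomal RNA and 95.2, 108 and 106 CPM in METTL7A1 polysomal RNA. In sub-polysomal RNA Cdkn1a was at 70.5, 88.0 and 82.4 CPM in mock and 174, 162 and 159.8 CPM in METTL7A1 cells. No mock library reached the METTL7A1 libraries of its pool, and the log2 rise was 0.59 ± 0.13 (SE, adjusted p = 0.0036) in polysomal and 1.03 ± 0.13 (SE, adjusted p = 2.29e-05) in sub-polysomal RNA. The polysomal call of Cdkn1a was lost when mock polysomal B and METTL7A1 polysomal E and F were left out 1 at a time (adjusted p from 0.0188 to 0.0253). Cdkn2d, an INK4 inhibitor of Cdk4 and Cdk6, was at 28.8, 29.9 and 22.5 CPM in mock and 62.9, 65.9 and 50.4 CPM in METTL7A1 sub-polysomal RNA. It rose by a log2 of 1.16 ± 0.16 (SE, adjusted p = 2.96e-05), with a polysomal log2 change of 0.56 (adjusted p = 0.011). Cdkn1b (p27) and Cdkn2c, the other tested inhibitors, did not pass (polysomal log2 changes 0.10, adjusted p = 0.769, and -0.12, adjusted p = 0.646). Of 12 genes of the pocket protein and p53 pathway, which were no members apart from Ccng1, 1 was higher in polysomal RNA (8.33%, against 5.03% of all genes). It was Btg2, an antiproliferative p53 target (log2 change 1.12, adjusted p = 0.00211). In sub-polysomal RNA Btg2 was higher (1.16, adjusted p = 0.00144) while Mdm2 (-0.62, adjusted p = 0.0017) and Sesn1 (-1.41, adjusted p = 0.00543) were lower. These were 8.33% and 16.7% of the list, against 10.5% and 7.69% of all genes. The polysomal rise of Btg2 did not pass without METTL7A1 polysomal D or E. Of the list, 0 mRNAs were lower in sub-polysomal RNA without METTL7A1 sub-polysomal E and 1 without mock sub-polysomal A or B or METTL7A1 sub-polysomal D or F, and 3 without mock polysomal A.

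Among the remaining members were the largest rise of the 106 mRNAs in both pools, that of Plk3, and the largest fall, that of Kif5c. Plk3, a stress-associated Polo-like kinase, was at 29.9, 27.6 and 29.4 CPM in mock polysomal RNA and 52.7, 65.7 and 59.2 CPM in METTL7A1 polysomal RNA. In sub-polysomal RNA Plk3 was at 31.0, 52.5 and 38.6 CPM in mock and 117, 109 and 107 CPM in METTL7A1 cells. The genotypes did not overlap, and Plk3 rose by a log2 of 1.03 ± 0.16 (SE, adjusted p = 0.00015) and 1.42 ± 0.16 (SE, adjusted p = 6.5e-06), calls kept without any 1 library. Cdk3 rose by a log2 of 1.37 ± 0.22 (SE, adjusted p = 0.000149) in sub-polysomal RNA, from 7.89, 11.9 and 14.2 CPM in mock to 34.1, 33.5 and 25.8 CPM in METTL7A1 cells. It did not pass in polysomal RNA (0.43, adjusted p = 0.19). The annotation used for coding lengths held no coding sequence for Cdk3, so its RNA may not encode a kinase. The Mediator kinase genes Cdk8 and Cdk19 were lower in both pools. Cdk8 was at 46.8, 55.9 and 45.7 CPM in mock polysomal RNA and 33.8, 31.3 and 31.3 CPM in METTL7A1 polysomal RNA. The log2 change of Cdk8 was -0.62 ± 0.14 (SE, adjusted p = 0.0057) there and -1.02 ± 0.16 (SE, adjusted p = 0.000143) in sub-polysomal RNA. Cdk19 was at 32.3, 35.3 and 33.3 CPM in mock polysomal RNA and 20.0, 16.0 and 21.9 CPM in METTL7A1 polysomal RNA. For Cdk19 the log2 changes were -0.81 ± 0.16 (SE, adjusted p = 0.00178) and -0.91 ± 0.20 (SE, adjusted p = 0.00182). The polysomal call of Cdk8 was lost when mock polysomal B, METTL7A1 sub-polysomal E and METTL7A1 polysomal D, E and F were left out 1 at a time (adjusted p from 0.0101 to 0.0353). That of Cdk19 was lost without METTL7A1 polysomal E (adjusted p = 0.0207). The sub-polysomal call of Cdk19 was lost when METTL7A1 sub-polysomal E and F were left out 1 at a time (adjusted p from 0.012 to 0.0124). Cdk14 had a log2 change of -0.68 ± 0.14 (SE, adjusted p = 0.00221) in polysomal RNA, where it was at 27.4, 27.2 and 23.9 CPM in mock and 16.0, 16.8 and 16.1 CPM in METTL7A1 cells. The call of Cdk14 was lost when mock polysomal B and METTL7A1 polysomal D, E and F were left out 1 at a time (adjusted p from 0.0114 to 0.0153). With Actb scaling 0 of the mRNAs of this group were lower in polysomal RNA and 1 in sub-polysomal RNA. Of all 12224 genes, 224 and 273 were lower with that scaling.

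Among the 14 other kinesins, Kif5c and Kif1c were lower in METTL7A1 cells. Kif5c, a conventional kinesin heavy chain, was at 3.96, 6.04 and 2.73 CPM in mock polysomal RNA and 0.684, 1.03 and 0.673 CPM in METTL7A1 polysomal RNA. In sub-polysomal RNA Kif5c was at 5.64, 2.52 and 5.52 CPM in mock and 0.994, 1.49 and 0.478 CPM in METTL7A1 cells. The mRNA was scarce and the genotypes did not overlap. Kif5c had a log2 change of -2.36 ± 0.43 (SE, adjusted p = 0.000784) in the polysomal pool and -2.18 ± 0.52 (SE, adjusted p = 0.00367) in the other. The sub-polysomal call of Kif5c was lost when mock sub-polysomal A and C and METTL7A1 sub-polysomal D and F were left out 1 at a time (adjusted p from 0.0117 to 0.0345). Kif1c, a transport kinesin, was at 229, 252 and 250 CPM in mock polysomal RNA and 133, 161 and 153 CPM in METTL7A1 polysomal RNA. The log2 change of Kif1c was -0.71 ± 0.13 (SE, adjusted p = 0.00085) there and -0.44 (adjusted p = 0.0179) in sub-polysomal RNA. The call of Kif1c was lost without METTL7A1 polysomal D (adjusted p = 0.0107).

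The 2 genotype comparisons used separate libraries, but of the same 2 transfectants and replicate letters and in 1 fit, so they are not independent tests. In both, 13 mRNAs passed in the same direction (65% of the 20 in polysomal and 56.5% of the 23 in sub-polysomal RNA), with 0 in opposite directions. Such shares were not computed for all genes. Aurka, Ccnb1, Cdc20, Cdc25b, Cdk1, Cdkn1a, Kif18b, Plk1 and Plk3 were higher in both pools, and Ccnd2, Cdk19, Cdk8 and Kif5c were lower in both. Of the mRNAs higher in polysomal RNA 13 had a promoter window, and 10 of these held the CHR letters shown above (76.9%). The same letters were in 0 of 4 lower mRNAs and in 21 of 75 that did not pass (28%). For the sub-polysomal comparison the letters were in 7 of 15 higher mRNAs (46.7%), 1 of 4 lower mRNAs (25%) and 23 of 73 that did not pass (31.5%). The letters also ran with role, standing in 10 of 12 mitotic kinase, cyclin and checkpoint genes and 9 of 10 mitotic kinesin genes. Bub3, Cdkn3, Kif11 and Kif23 held them and passed in neither pool, while Ccnb1 was higher in both pools without them. Role and call were not told apart. When each of the 12 libraries was left out in turn, 7 of the 20 polysomal calls were kept throughout (Aurka, Ccnd2, Cdc20, Cdc25b, Kif2c, Kif5c and Plk3). So were 12 of the 23 sub-polysomal calls (Aurka, Ccnd3, Ccne1, Cdc20, Cdc25b, Cdk1, Cdk3, Cdk8, Cdkn1a, Cdkn2d, Cenpa and Plk3).

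Further lists of genes that are no members were chosen with earlier results of these data known. In a list of 37 further mitotic genes, 5 were higher in polysomal RNA of METTL7A1 cells (13.5%, against 5.03% of all genes) and 0 lower. The higher mRNAs were those of Pttg1, the gene of securin (log2 change 1.07, adjusted p = 1.59e-05), the ubiquitin-conjugating enzyme gene Ube2c (0.83, adjusted p = 0.000454) and the minus-end kinesin gene Kifc1 (1.28, adjusted p = 5.67e-05). With them were the spindle factor gene Tpx2 (0.78, adjusted p = 0.000339) and the kinase gene Nek2 (0.65, adjusted p = 0.0057). In sub-polysomal RNA Pttg1 (1.37, adjusted p = 2.7e-06) and Ube2c (1.15, adjusted p = 1.73e-05) were higher, 5.41% of the list and below the 10.5% of all genes. The kinetochore gene Nuf2 (-0.66, adjusted p = 0.00928) and the proliferation marker Mki67 (-0.74, adjusted p = 0.00801) were lower (5.41%, against 7.69%). Neither of these falls passed without mock sub-polysomal A or C, mock polysomal B or METTL7A1 sub-polysomal D or E, and 1 mRNA was lower without METTL7A1 sub-polysomal F or METTL7A1 polysomal E or F, and 3 without mock sub-polysomal B. The median of the 37 was 0.37 among polysomal and 0.13 among sub-polysomal libraries. In a list of 34 further S phase genes, 0 were higher in either pool, against 5.03% and 10.5% of all genes. In polysomal RNA 2 were lower (Gins2 and Rfc3, 5.88%, against 3.78%). In sub-polysomal RNA 4 were lower (among them Rrm2, Rfc3 and Slbp, 11.8%, against 7.69%). The medians were -0.15 and -0.24. The polysomal count of 2 was 1 without any 1 of the mock polysomal libraries, 0 without any 1 of the METTL7A1 polysomal libraries and 3 without mock sub-polysomal A. The sub-polysomal count of 4 was 2 without mock sub-polysomal A or METTL7A1 sub-polysomal D. With Actb scaling the sub-polysomal counts were 7 higher and 0 lower in the mitotic list and 1 higher and 0 lower in the S phase list. Of all 12224 genes, 2093 were higher and 273 lower with that scaling.

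The distribution of each mRNA between the pools was then compared within a genotype, as the log2 ratio of polysomal over sub-polysomal levels. Values are relative to the other mRNAs of a library and not to the total RNA of a pool. In mock cells 30 of the 106 mRNAs were higher in polysomal RNA (28.3%, against 15.7% of all genes tested) and 16 were lower (15.1%, against 17.9%). In METTL7A1 cells 36 were higher (34%, against 23%) and 21 were lower (19.8%, against 23.7%). Past a log2 change of 1.5 were 7 mRNAs in mock cells (7.55% of all genes passed this limit) and 10 in METTL7A1 cells (12.1% of all genes). The median log2 change of the 106 mRNAs was 0.28 in mock and 0.38 in METTL7A1 cells, against 0.05 and 0.06 for all genes tested. Scaled to Actb, the split was 19 higher and 17 lower in mock and 20 higher and 25 lower in METTL7A1 cells, where the median of all genes was -0.02 and -0.18. The genotypes share no library here, but both comparisons came from the same fit. In both, 37 mRNAs passed in the same direction (80.4% of the 46 in mock and 64.9% of the 57 in METTL7A1 cells). Of these, 22 lay towards the polysomal pool and 15 towards the sub-polysomal pool, and 0 mRNAs passed in opposite directions. The matching overlap among all genes was not computed, so these shares have no background beside them.

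**Figure D3:**
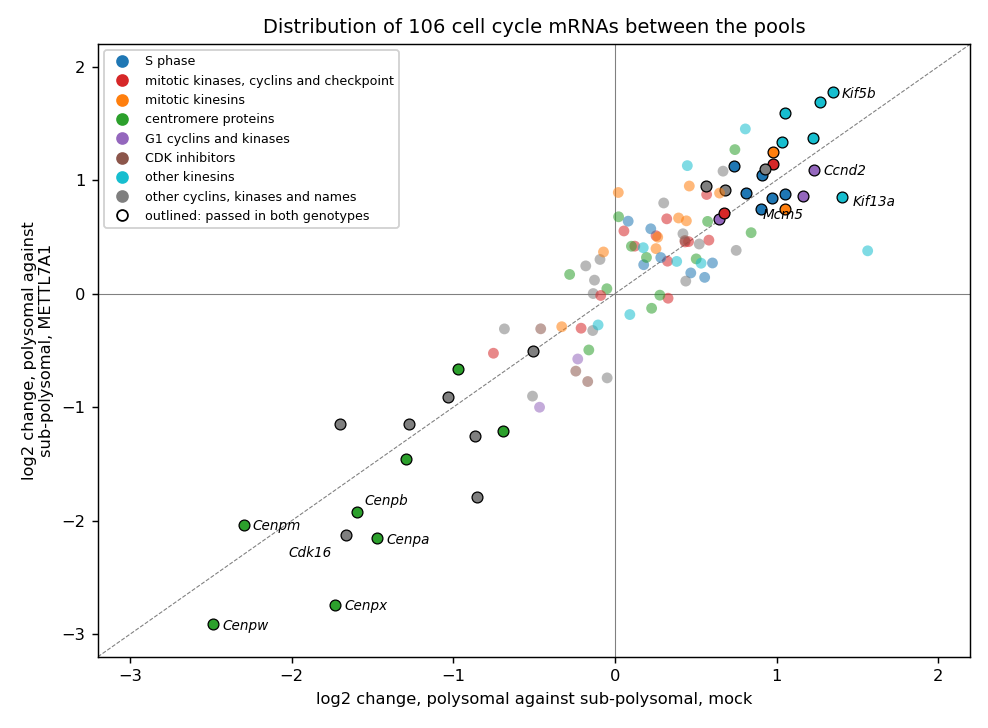
Log2 change from sub-polysomal to polysomal RNA of the 106 tested mRNAs in mock (x axis) and METTL7A1 cells (y axis), coloured by role, with the dashed line at equal change. The 37 outlined mRNAs passed in both genotypes, with Cenpw, Cenpx, Cenpm, Cenpa and Cenpb at the sub-polysomal end and Kif5b and Ccnd2 at the polysomal end.

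S phase mRNAs lay towards the polysomal pool. All 13 had a log2 change above 0 in both genotypes (medians 0.60 in mock and 0.64 in METTL7A1 cells, against 0.05 and 0.06 for all genes tested). The share of all genes above 0 was not computed. In mock 8 and in METTL7A1 cells 7 passed, all higher in polysomal RNA (61.5% and 53.8%, against 15.7% and 23% of all genes). Mcm5, a subunit of the replicative helicase (chr8:75109569-75128439, plus strand), was at 172, 177 and 178 CPM in sub-polysomal and 418, 318 and 356 CPM in polysomal RNA of mock cells. In METTL7A1 cells Mcm5 was at 172, 163 and 141 CPM (sub-polysomal) and 285, 317 and 274 CPM (polysomal). The pools did not overlap in either genotype, and the log2 change was 1.05 ± 0.14 (SE, adjusted p = 1.31e-05) in mock and 0.88 ± 0.14 (SE, adjusted p = 3.71e-05) in METTL7A1 cells. Mcm3 was at 114, 137 and 123 CPM in mock sub-polysomal and 265, 196 and 242 CPM in mock polysomal RNA (0.90 ± 0.15 SE, adjusted p = 7.13e-05). Its change was 0.74 (adjusted p = 0.000257) in METTL7A1 cells. Mcm4 (0.74, adjusted p = 0.00102, in mock and 1.13, adjusted p = 1.15e-05, in METTL7A1 cells) and Mcm6 (0.81, adjusted p = 0.000315, and 0.89, adjusted p = 7.98e-05) passed in both genotypes. Mcm2 passed in mock cells (0.60, adjusted p = 0.00271, and 0.27, adjusted p = 0.12) and Mcm7 in neither (0.28, adjusted p = 0.0912, and 0.32, adjusted p = 0.0513). The call of Mcm2 was lost when mock sub-polysomal C and mock polysomal A were left out 1 at a time (adjusted p from 0.0144 to 0.0213).

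Cdc6 was at 32.1, 36.1 and 34.5 CPM in sub-polysomal and 71.2, 63.6 and 59.1 CPM in polysomal RNA of mock cells, a log2 change of 0.91 ± 0.14 (SE, adjusted p = 3.78e-05). In METTL7A1 cells Cdc6 was at 25.8, 24.8 and 21.2 CPM (sub-polysomal) and 48.0, 48.5 and 51.6 CPM (polysomal), a change of 1.05 ± 0.14 (SE, adjusted p = 5.29e-06). Cdc45 was at 50.7, 50.3 and 47.5 CPM and 102, 91.7 and 96.8 CPM in the sub-polysomal and polysomal pools of mock cells (0.97 ± 0.12 SE, adjusted p = 6.85e-06), with a change of 0.84 (adjusted p = 1.21e-05) in METTL7A1 cells. For both genes the polysomal libraries lay above the sub-polysomal libraries in each genotype. The calls of Mcm3, Mcm4, Mcm5, Mcm6, Cdc6 and Cdc45 were kept in both genotypes without any 1 library. Cdc7, the kinase that fires origins, passed in METTL7A1 cells (0.08, adjusted p = 0.718, in mock and 0.64, adjusted p = 0.00394, in METTL7A1 cells). Cdk2 passed in mock cells (0.56, adjusted p = 0.00392, and 0.14, adjusted p = 0.383). The call of Cdc7 was lost when METTL7A1 sub-polysomal E and F and METTL7A1 polysomal E and F were left out 1 at a time (adjusted p from 0.0102 to 0.0199). The call of Cdk2 was lost when mock sub-polysomal B and C and mock polysomal A were left out 1 at a time (adjusted p from 0.0155 to 0.034). Ccne1 (0.47, adjusted p = 0.0128, and 0.18, adjusted p = 0.263), Ccne2 (0.22, adjusted p = 0.41, and 0.57, adjusted p = 0.0447) and Cdc25a (0.18, adjusted p = 0.288, and 0.25, adjusted p = 0.102) did not pass. In mock cells 14 of the 34 further S phase mRNAs passed as higher in the polysomal pool and 2 as lower (41.2% and 5.88%, against 15.7% and 17.9% of all genes). In METTL7A1 cells these were 16 and 3 (47.1% and 8.82%, against 23% and 23.7%). The 14 became 9 without mock sub-polysomal B. With Actb scaling the counts of higher mRNAs were 8 in mock and 7 in METTL7A1 cells, against 1226 and 1335 of all 12224 genes.

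Of the 15 mitotic kinases, cyclins and checkpoint genes, 3 passed in mock and 6 in METTL7A1 cells, all higher in polysomal RNA. These were 20% and 40%, against 15.7% and 23% of all genes. Cdk1, at 207, 216 and 192 CPM in sub-polysomal and 369, 285 and 325 CPM in polysomal RNA of mock cells, had a log2 change of 0.67 ± 0.15 (SE, adjusted p = 0.00113), and of 0.71 ± 0.15 (SE, adjusted p = 0.000431) in METTL7A1 cells. Bub1b was at 13.5, 13.5 and 12.6 CPM and 29.7, 21.3 and 26.5 CPM in the sub-polysomal and polysomal pools of mock cells (0.98 ± 0.17 SE, adjusted p = 0.000165). Bub1b was at 16.2, 22.6 and 18.9 CPM and 41.0, 43.2 and 43.9 CPM in those of METTL7A1 cells (1.14 ± 0.16 SE, adjusted p = 6.14e-06). Both kept their calls in each genotype without any 1 library, and their pools did not overlap. Aurkb passed in mock cells (0.58, adjusted p = 0.00731, against 0.47, adjusted p = 0.0161, in METTL7A1 cells). Ccnb2 (0.55, adjusted p = 0.00301), Ccna2 (0.51, adjusted p = 0.00556), Bub1 (0.66, adjusted p = 0.00537) and Cdc25c (0.87, adjusted p = 0.00267) passed in METTL7A1 cells. The call of Aurkb was lost when mock sub-polysomal B and C, mock polysomal A, B and C, METTL7A1 sub-polysomal E and METTL7A1 polysomal D were left out 1 at a time (adjusted p from 0.0101 to 0.066). The call of Ccnb2 was lost when METTL7A1 sub-polysomal F and METTL7A1 polysomal D were left out 1 at a time (adjusted p from 0.02 to 0.0221). The call of Ccna2 was lost when METTL7A1 sub-polysomal D and E and METTL7A1 polysomal D, E and F were left out 1 at a time (adjusted p from 0.0109 to 0.0351). The call of Bub1 was lost when mock sub-polysomal A, METTL7A1 sub-polysomal D and E and METTL7A1 polysomal D and E were left out 1 at a time (adjusted p from 0.0117 to 0.0368). The call of Cdc25c was lost when METTL7A1 sub-polysomal F and METTL7A1 polysomal E were left out 1 at a time (adjusted p from 0.02 to 0.0222). Among the genes that differed between genotypes, Aurka (0.33, adjusted p = 0.0705, and 0.29, adjusted p = 0.0728), Cdc20 (0.43, adjusted p = 0.0364, and 0.46, adjusted p = 0.0147) and Cdc25b (0.33, adjusted p = 0.0988, and -0.04, adjusted p = 0.824) passed in neither genotype. The same held for Plk1 (-0.21, adjusted p = 0.433, and -0.30, adjusted p = 0.174) and Ccnb1 (0.46, adjusted p = 0.106, and 0.46, adjusted p = 0.0619). The count of 6 in METTL7A1 cells was 3 without METTL7A1 polysomal D or E and 1 with Actb scaling, where 1335 of all 12224 genes were higher.

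Mitotic kinesins were also higher in polysomal RNA where they passed (2 of 11 in mock and 6 of 11 in METTL7A1 cells). These were 18.2% and 54.5%, against 15.7% and 23% of all genes. Kif20a was at 16.4, 18.9 and 12.6 CPM in sub-polysomal and 38.2, 24.9 and 29.4 CPM in polysomal RNA of mock cells (0.98 ± 0.19 SE, adjusted p = 0.000304). In METTL7A1 cells Kif20a was at 21.2, 18.3 and 18.1 CPM (sub-polysomal) and 44.6, 46.6 and 44.9 CPM (polysomal) (1.24 ± 0.17 SE, adjusted p = 7.48e-06). Kif23 passed in METTL7A1 cells (0.46, adjusted p = 0.0382, in mock and 0.95, adjusted p = 0.000147, in METTL7A1 cells), as did Kif11 (0.39, adjusted p = 0.0897, and 0.67, adjusted p = 0.00406). Kif2c passed in neither (0.26, adjusted p = 0.285, and 0.50, adjusted p = 0.0196). The call of Kif11 was lost when METTL7A1 sub-polysomal D and E and METTL7A1 polysomal E and F were left out 1 at a time (adjusted p from 0.0112 to 0.042). The count of 6 in METTL7A1 cells was 2 without METTL7A1 sub-polysomal D, 3 without METTL7A1 sub-polysomal F or any 1 of the METTL7A1 polysomal libraries, and 2 with Actb scaling. With that scaling 1335 of all 12224 genes were higher. In mock cells 7 of the 37 further mitotic mRNAs passed as higher in the polysomal pool and 4 as lower (18.9% and 10.8%, against 15.7% and 17.9% of all genes). In METTL7A1 cells these were 20 and 6 (54.1% and 16.2%, against 23% and 23.7%). With Actb scaling the 20 became 10.

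**Figure D4:**
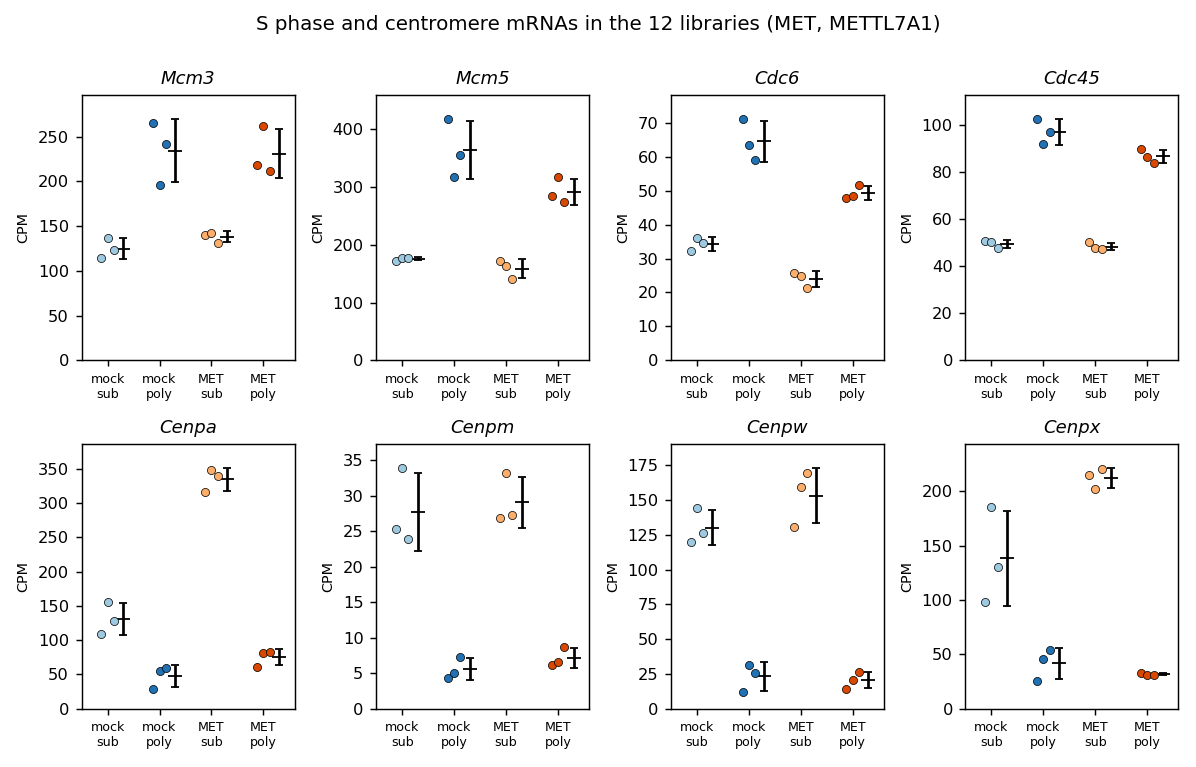
CPM of 4 S phase mRNAs (upper row) and 4 centromere protein mRNAs (lower row) in the 12 libraries by group (axes, points and bars as in the plot of mitotic regulators: CPM from 0, points for libraries, mean ± SD of 3 replicates). The polysomal points lie above the sub-polysomal points in the upper row and below them in the lower row, in both genotypes.

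Centromere proteins went the other way, with 1 of 20 higher and 8 lower in polysomal RNA in each genotype. The share of lower mRNAs was 40% in each, against 17.9% of all genes in mock and 23.7% in METTL7A1 cells. The same 8 mRNAs (Cenpa, Cenpb, Cenpm, Cenps, Cenpu, Cenpv, Cenpw and Cenpx) were lower in both genotypes, and the count of lower mRNAs was between 7 and 9 when single libraries were left out and under the other settings that kept the thresholds. Past a log2 change of 1.5, 4 were lower in mock and 5 in METTL7A1 cells. The summed level of the 20 mRNAs was 1092 to 1335 CPM in mock sub-polysomal and 464 to 593 CPM in mock polysomal libraries, and 1669 to 1705 CPM against 517 to 611 CPM in METTL7A1 cells. Cenpw, a small histone-fold protein of the kinetochore (chr10:30194569-30200560, minus strand), was at 120.1, 144 and 126 CPM in sub-polysomal and 12.0, 31.7 and 25.9 CPM in polysomal RNA of mock cells. In METTL7A1 cells Cenpw was at 131, 159 and 169 CPM (sub-polysomal) and 14.4, 20.9 and 26.1 CPM (polysomal). The pools were far apart, with log2 changes of -2.49 ± 0.25 (SE, adjusted p = 8.54e-07) and -2.91 ± 0.26 (SE, adjusted p = 7.73e-08). Cenpx, another histone-fold protein, was at 98.6, 186 and 131 CPM and 25.9, 45.9 and 53.9 CPM in the sub-polysomal and polysomal pools of mock cells (-1.73 ± 0.22 SE, adjusted p = 7.44e-06). Cenpx was at 215, 202 and 220.4 CPM and 32.6, 31.3 and 31.5 CPM in those of METTL7A1 cells (-2.74 ± 0.23 SE, adjusted p = 5.12e-08). Cenpa was at 109, 156 and 128 CPM and 28.6, 54.8 and 58.8 CPM in the sub-polysomal and polysomal pools of mock cells (-1.47 ± 0.21 SE, adjusted p = 2.29e-05). It changed by -2.16 ± 0.21 (SE, adjusted p = 1.77e-07) in METTL7A1 cells.

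Cenpm was at 25.4, 34.0 and 23.9 CPM in sub-polysomal and 4.36, 5.08 and 7.31 CPM in polysomal RNA of mock cells. The log2 changes of Cenpm were -2.30 (adjusted p = 4.29e-07) in mock and -2.04 (adjusted p = 2.66e-07) in METTL7A1 cells. The changes of Cenpb were -1.60 (adjusted p = 1.64e-06) and -1.92 (adjusted p = 9.49e-08), those of Cenps -1.29 (adjusted p = 9.45e-06) and -1.45 (adjusted p = 1.26e-06), and those of Cenpv -0.69 (adjusted p = 0.000299) and -1.21 (adjusted p = 4.77e-07). Cenpu, with 36.5% of its exon bases shared with Primpol on the other strand, changed by -0.97 (adjusted p = 0.000144) and -0.66 (adjusted p = 0.00372). The call of Cenpu was lost when METTL7A1 sub-polysomal E and F and METTL7A1 polysomal D and E were left out 1 at a time (adjusted p from 0.0126 to 0.0286). The exceptions were Cenpi, higher in polysomal RNA of mock cells (0.50, adjusted p = 0.00697) and Cenpe, the gene of a kinetochore motor, higher in METTL7A1 cells (0.74, adjusted p = 0.0372, in mock and 1.27, adjusted p = 0.000734, in METTL7A1 cells). Cenpf passed in neither (-0.05, adjusted p = 0.877, and 0.04, adjusted p = 0.886). The call of Cenpi was lost when mock sub-polysomal A, B and C, mock polysomal A and B and METTL7A1 polysomal D, E and F were left out 1 at a time (adjusted p from 0.0102 to 0.0303).

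The G1 cyclins and kinases were split. Ccnd2 was at 41.1, 31.1 and 39.8 CPM in sub-polysomal and 105, 84.2 and 73.9 CPM in polysomal RNA of mock cells (1.23 ± 0.17 SE, adjusted p = 1.17e-05), with a change of 1.09 ± 0.17 (SE, adjusted p = 3.1e-05) in METTL7A1 cells. Cdk6 (1.17, adjusted p = 9.68e-06, in mock and 0.86, adjusted p = 9.11e-05, in METTL7A1 cells) and Ccnd1 (0.64, adjusted p = 0.0025, and 0.65, adjusted p = 0.0015) were higher in polysomal RNA too. Ccnd3 (-0.47, adjusted p = 0.0174, and -1.00, adjusted p = 1.94e-05) and Cdk4 (-0.23, adjusted p = 0.196, and -0.58, adjusted p = 0.00207) were lower in polysomal RNA of METTL7A1 cells. The mock call of Ccnd1 was lost without mock sub-polysomal C (adjusted p = 0.0208). Its METTL7A1 call was lost when METTL7A1 sub-polysomal E and METTL7A1 polysomal E were left out 1 at a time (adjusted p from 0.0102 to 0.0119). The call of Cdk4 was lost when METTL7A1 sub-polysomal E and METTL7A1 polysomal D were left out 1 at a time (adjusted p from 0.0125 to 0.0142). The inhibitors Cdkn1a (-0.24, adjusted p = 0.144, and -0.68, adjusted p = 0.000188) and Cdkn2d (-0.17, adjusted p = 0.392, and -0.77, adjusted p = 0.000141) were lower in polysomal RNA of METTL7A1 cells. There Cdkn1a was at 174, 162 and 159.8 CPM in the sub-polysomal and 95.2, 108 and 106 CPM in the polysomal pool. Cdkn1b passed in neither genotype (0.43, adjusted p = 0.0995, and 0.47, adjusted p = 0.058).

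Of the 14 other kinesins 8 were higher in polysomal RNA in each genotype and 0 were lower. The share of higher mRNAs was 57.1% in each, against 15.7% of all genes in mock and 23% in METTL7A1 cells. Kif5b, the ubiquitous conventional kinesin heavy chain, was at 29.3, 20.4 and 23.7 CPM in sub-polysomal and 76.0, 61.8 and 45.9 CPM in polysomal RNA of mock cells. In METTL7A1 cells Kif5b was at 20.9, 17.9 and 27.9 CPM (sub-polysomal) and 76.1, 74.6 and 78.4 CPM (polysomal). The pools were apart in both genotypes, with log2 changes of 1.35 ± 0.20 (SE, adjusted p = 2.84e-05) and 1.77 ± 0.20 (SE, adjusted p = 6.02e-07). The kinesin-2 motors Kif3a (1.03, adjusted p = 0.0017, and 1.33, adjusted p = 0.000627) and Kif3b (1.05, adjusted p = 0.000113, and 1.59, adjusted p = 1.16e-06) were also higher in polysomal RNA in both. So were Kif13a (1.40, adjusted p = 0.000195, and 0.85, adjusted p = 0.00486), Kif16b (1.22, adjusted p = 0.00818, and 1.38, adjusted p = 0.00232) and Kif21a (1.27, adjusted p = 0.00151, and 1.68, adjusted p = 5.98e-05). The call of Kif3a was lost without mock sub-polysomal B (adjusted p = 0.0132). The mock call of Kif16b was lost when mock sub-polysomal A and B, mock polysomal A and B, METTL7A1 sub-polysomal E and METTL7A1 polysomal D and E were left out 1 at a time (adjusted p from 0.0114 to 0.0489). Its METTL7A1 call was lost without METTL7A1 sub-polysomal D (adjusted p = 0.0144). The mock call of Kif21a was lost without mock sub-polysomal B (adjusted p = 0.0125). The METTL7A1 call of Kif13a was lost when METTL7A1 sub-polysomal E and F and METTL7A1 polysomal D and E were left out 1 at a time (adjusted p from 0.0151 to 0.0266). The mock count of 8 was 4 without mock sub-polysomal B. Both counts of 8 became 3 when at least 10 counts were required in every library, a filter that left 6 of the 14 mRNAs. Among the other cyclins and kinases, Cdk16 (-1.66, adjusted p = 4.9e-06, and -2.13, adjusted p = 1.73e-07) and Cdk3 (-0.86, adjusted p = 0.00623, and -1.79, adjusted p = 8.06e-07) were at the low end. The splicing-linked cyclins Ccnl1 (-1.70, adjusted p = 7.48e-06, and -1.15, adjusted p = 0.000187) and Ccnl2 (-1.28, adjusted p = 1.78e-05, and -1.15, adjusted p = 2.04e-05) were there as well. The call of Cdk3 was lost when mock sub-polysomal B and C and mock polysomal A and C were left out 1 at a time (adjusted p from 0.0157 to 0.0866). Cdk16 was at 165, 244 and 244 CPM in sub-polysomal and 43.8, 85.8 and 77.6 CPM in polysomal RNA of mock cells. This group had 5 higher and 8 lower mRNAs in mock cells (20.8% and 33.3%, against 15.7% and 17.9% of all genes). In METTL7A1 cells it had 5 higher and 9 lower (20.8% and 37.5%, against 23% and 23.7%). In mock cells the 5 became 1 without mock sub-polysomal B, mock sub-polysomal C or mock polysomal A, and the 8 became 5 without mock polysomal A or C.

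**Figure D5:**
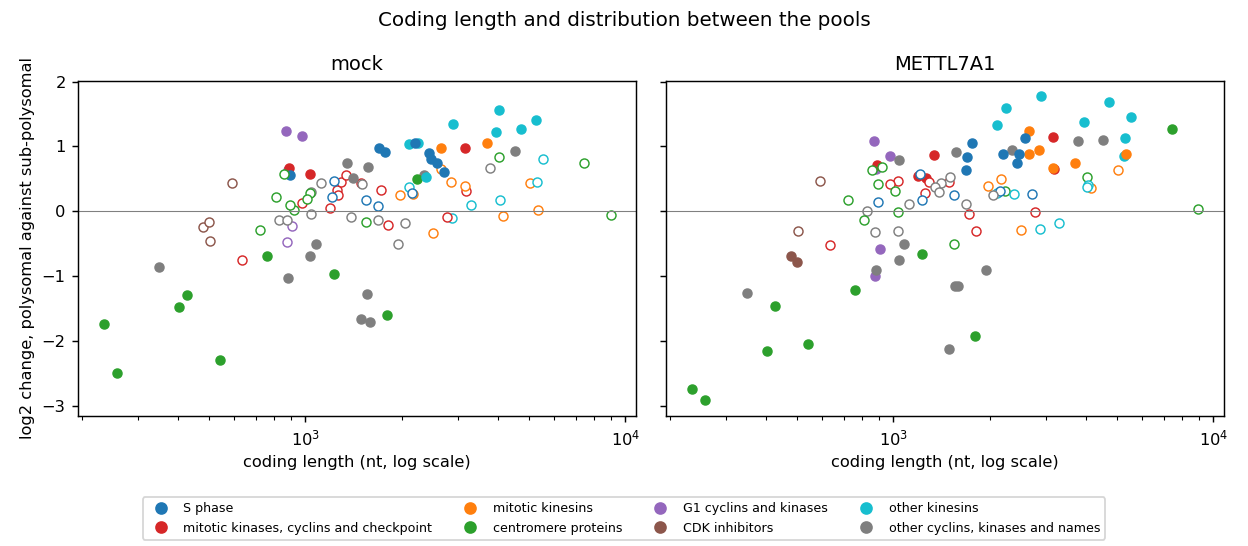
Log2 change from sub-polysomal to polysomal RNA (y axis) against coding length in nt (x axis, log scale) for 105 mRNAs in mock (left) and METTL7A1 cells (right), coloured by role and filled where the adjusted p was below 0.01. The short centromere mRNAs lie at the lower left and the long kinesin mRNAs at the upper right (Spearman's rho 0.501 and 0.555).

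The groups differed in coding length, and the distribution between pools ran with it. The median coding length was 906 nt in the centromere proteins, 501 nt in the tested CDK inhibitors, 1290 nt in the mitotic kinases, cyclins and checkpoint genes, 1767 nt in the S phase genes, 2859 nt in the mitotic kinesins and 3618 nt in the other kinesins. Cenpx and Cenpw had coding sequences of 234 and 258 nt. Across the 105 tested members with a coding length (all but Cdk3), Spearman's rho with the log2 change was 0.501 in mock and 0.555 in METTL7A1 cells. Across 10842 genes it was 0.546 and 0.538. These are descriptions, since genes of the same libraries are not independent replicates. Of the 10 members with under 600 nt, 6 in mock and 8 in METTL7A1 cells were lower in polysomal RNA and 0 were higher, against 58.1% and 67.2% lower of all genes of that length. Of the 39 members from 600 to below 1500 nt, 8 were higher in each genotype, while 6 (mock) and 8 (METTL7A1) were lower. Of all genes of that length, 10.4% and 19.1% were higher and 15.9% and 22.2% lower. Of the 36 members from 1500 to below 3000 nt, 15 were higher in each genotype, while 3 and 4 were lower. Of all genes of that length, 24.4% and 34.1% were higher and 4.91% and 9.2% lower. Of the 20 members with 3000 nt or more, 7 in mock and 13 in METTL7A1 cells were higher and 0 lower, against 39.1% and 48% higher of all genes of that length. The part of coding length in the differences between roles was not tested.

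Whether METTL7A1 moved these mRNAs between the pools was asked by the shift to polysomes, that is, the log2 ratio of polysomal over sub-polysomal levels in METTL7A1 cells minus that in mock cells. By edgeR 0 of the 106 mRNAs passed, as did 0% of all genes, and limma-voom and DESeq2 passed 0 of them as well. At an unadjusted p below 0.05 by edgeR were 14 of the 106 members, against 1912 of all 12224 genes, so the members showed no excess. The median shift was 0.07, against -0.01 for all genes, and the medians of the roles lay between -0.30 (G1 cyclins and kinases) and 0.24 (mitotic kinesins). The members with the smallest p-values were Cenpx (-1.01 ± 0.31 SE, adjusted p = 0.138), Cdk3 (-0.94 ± 0.31 SE, adjusted p = 0.159) and Cdkn2d (-0.61 ± 0.21 SE, adjusted p = 0.182). Next came Cenpv (-0.52 ± 0.18 SE, adjusted p = 0.188) and Kif20b (0.87 ± 0.33 SE, adjusted p = 0.211), of which Kif20b alone had a value above 0. Kif20b was at 31.0, 12.6 and 19.3 CPM in sub-polysomal and 18.0, 23.8 and 18.8 CPM in polysomal RNA of mock cells. In METTL7A1 cells Kif20b was at 10.6, 13.6 and 11.2 CPM (sub-polysomal) and 24.5, 18.6 and 23.2 CPM (polysomal). With no filter beyond 1 count in total, Cenpx passed (log2 shift -1.03, adjusted p = 0.00879) as the only member of 117. Among the mitotic kinases, cyclins and checkpoint genes the shift ran from -0.37 (Cdc25b, 95% interval -0.82 to 0.08) to 0.50 (Ccnb2, 0.06 to 0.93, adjusted p = 0.262), with 1 of the 15 at an unadjusted p below 0.05. It was 0.34 for Bub1 (-0.24 to 0.92), 0.31 for Cdc25c (-0.44 to 1.05), 0.17 for Bub1b (-0.33 to 0.66) and -0.10 for Plk1 (-0.69 to 0.50). Values nearer to 0 were those of Cdk1 (0.04, -0.40 to 0.47), Aurka (-0.04, -0.45 to 0.37), Cdc20 (0.02, -0.45 to 0.49) and Ccnb1 (0.00, -0.68 to 0.68). A p-value that misses the threshold does not show that the distribution was the same.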

How the data were processed

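Polysomal and sub-polysomal libraries of mock and METTL7A1 4T1 cells were used, 12 in all, each in the group of its label. The deposited files hold counts of each gene. For these libraries the submitters' notes name bcl2fastq, STAR 2.5.3a, the mouse genome (GRCm38/mm10), featureCounts and R 3.5.1. The paper describes rRNA-depleted, stranded libraries, paired-end reads and trimming with BBDuk for its RNA-Seq of total RNA. It does not say whether the same steps were used for the pools. The strand setting of the counting and the treatment of multiply matching reads are not given in the sources used here, so genes with close copies, such as Ccnb1 and Ccnb2 with their pseudogenes, may have shared reads. All values were whole numbers, no normalization had been applied, and 0 rows lacked a gene name.

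A gene was kept where 3 or more libraries had 1 CPM or more. The model of edgeR 4.0.16 (R 4.3.3) had a mean for each of the 4 groups over all 12 libraries, with TMM scaling, and contrasts were tested with the quasi-likelihood test, adjusted by the Benjamini-Hochberg method over all 12224 genes. An mRNA passed at an adjusted p below 0.01, and the count past a log2 change of 1.5 is also given, both being limits of the study's methods. The test was run on simulated counts with known changes. Intervals are 95%, and limits from a count of 0 cover counting error only.

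Members were matched by symbol and grouped by role, and the members, roles and lists were chosen with earlier results of these data known. Named were a fixed set of core genes of each role and, in each comparison, the 5 largest rises and 5 largest falls that passed with a mean of at least 5 CPM, for the shift also the 5 smallest p-values. Other members named, such as Kif5c, Plk4, Bub3, Btg2 and the further mitotic and S phase genes, were chosen after their values were seen. Alternatives were DESeq2 1.42.0, limma-voom (limma 3.58.1), RLE factors, other filters and thresholds, only the compared groups in the fit, the replicate letter as a block, leaving out each library and, chosen for the counts after the data were seen, scaling to the Actb count. Promoter windows were those of RefSeq, coding lengths came from the gene annotation of GRCm38, and figures were drawn with matplotlib 3.10.9.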

Additional observations from a re-analysis of the deposited data

How the results depend on the processing

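The counts of mRNAs passed kept their main direction in most settings, and depth limits the scarce mRNAs and mock sub-polysomal A most. With the limit of 1.5 on the log2 change, the counts were 7 (polysomal against sub-polysomal, mock), 10 (the same in METTL7A1 cells), 1 (METTL7A1 against mock, polysomal) and 1 (sub-polysomal), as this limit is stricter by construction. At an adjusted p below 0.05 33 mRNAs passed between genotypes in the polysomal pool and 47 in the sub-polysomal pool. The share of all genes at this looser threshold was not computed, so these counts have no background beside them. Without a filter, 1 mRNA (Cenpx) passed for the shift, and the cause was not tested. Leaving out single libraries gave 32 to 47, 45 to 57, 10 to 22 and 16 to 30 in the order above and 0 to 0 for the shift. Of the 146 calls of the tested members 64 were lost in at least 1 alternative that kept the thresholds, and 0 were reversed. Of 384 pairs of gene and comparison without a call, 97 took another sign in at least 1 setting. DESeq2 passed 46, 52, 22, 28 and 0 mRNAs and limma-voom 44, 56, 20, 22 and 0.

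The replicate letters were not used as pairs, since deviations of the same letter correlated with r between -0.292 and 0.107 across genes. With the letter as a replicate block the counts between the pools were 40 in mock (25 higher and 15 lower) and 54 in METTL7A1 cells (34 higher and 20 lower), and 0 for the shift. Mock and METTL7A1 libraries share no letter, so no block could be fitted for the genotype comparisons.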
